A study of Mus musculus with 6 samples.

Results

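Endothelial cells line the aortic lumen, and 10 genes that are widely used to identify them were followed in whole thoracic aorta: Pecam1, Cdh5, Cldn5, Emcn, Kdr, Tek, Tie1, Vwf, Nos3 and Egfl7. The genes were taken by name and matched to the Ensembl identifiers of the deposited table, which gave 10 of 10 genes among 52636 in all. Bulk RNA sequencing covered 6 libraries, all from thoracic aorta of mice aged 12 weeks. The WT group (n = 4) was C57BL/6J without treatment. The KO group (n = 2) was Tgfbr1/2iSMCKO: mice that carried loxP-flanked Tgfbr1 and Tgfbr2, Myh11-CreERT2 and a mT/mG fluorescent reporter, and that were injected with 2 mg of tamoxifen daily on 5 days from the age of 11 weeks. The Myh11 promoter directs Cre to smooth muscle cells (SMCs), not to endothelium, and the transgene lies on the Y chromosome, so the mice were male. The WT mice had none of these alleles and no tamoxifen, and the part of each in a difference cannot be told apart.

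The endothelium is a single layer of cells that forms the barrier between blood and the vessel wall. Its junctions are built from cadherins and claudins, its growth and stability are set by receptor tyrosine kinases for VEGF and the angiopoietins, and it releases nitric oxide to relax the SMCs beneath it. Transcription of many endothelial genes depends on ETS family factors such as Erg and Fli1, which bind a GGAA core. In RNA of a whole vessel these transcripts come from few cells, and a higher level can come from more endothelial cells or from more RNA per cell, which bulk data cannot tell apart.

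Promoters are shown for both VEGF and angiopoietin-type receptors that passed the test (Kdr and Tie1) and for the genes that did not move upward with them (Egfl7 and Cldn5). They are the 250 bases before the annotated start, on the coding strand and from RefSeq on GRCm38.p6, which held promoters for 6 of the 10 genes (not for Pecam1, Cdh5, Vwf and Nos3). Capitals mark AGGAAG, a form of the ETS motif, or its reverse complement CTTCCT. The windows are chr5:75978456-75978705 for Kdr on the minus strand, chr4:118489850-118490099 for Tie1 on the minus strand, chr2:26580833-26581082 for the first of 3 Egfl7 starts on the plus strand, and chr16:18776597-18776846 for Cldn5 on the plus strand. Gene positions elsewhere in the text are from GENCODE and can differ from these starts. By GENCODE, the Egfl7 window and most of the Tie1 window lie inside the gene.
Kdr: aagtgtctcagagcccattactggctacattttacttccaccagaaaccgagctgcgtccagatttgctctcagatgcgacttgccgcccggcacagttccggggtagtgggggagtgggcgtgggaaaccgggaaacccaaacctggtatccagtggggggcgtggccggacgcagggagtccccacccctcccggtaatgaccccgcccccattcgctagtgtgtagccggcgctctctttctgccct
Tie1: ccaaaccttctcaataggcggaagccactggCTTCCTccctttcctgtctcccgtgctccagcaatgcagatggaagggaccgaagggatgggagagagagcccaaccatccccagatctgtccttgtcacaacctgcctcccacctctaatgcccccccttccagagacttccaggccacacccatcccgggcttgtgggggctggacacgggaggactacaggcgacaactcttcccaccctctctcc
Egfl7: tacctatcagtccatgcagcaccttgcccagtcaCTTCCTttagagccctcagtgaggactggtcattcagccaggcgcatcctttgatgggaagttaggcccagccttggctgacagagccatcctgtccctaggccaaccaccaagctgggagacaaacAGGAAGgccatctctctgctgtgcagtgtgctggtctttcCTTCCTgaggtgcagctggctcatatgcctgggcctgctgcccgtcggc
Cldn5: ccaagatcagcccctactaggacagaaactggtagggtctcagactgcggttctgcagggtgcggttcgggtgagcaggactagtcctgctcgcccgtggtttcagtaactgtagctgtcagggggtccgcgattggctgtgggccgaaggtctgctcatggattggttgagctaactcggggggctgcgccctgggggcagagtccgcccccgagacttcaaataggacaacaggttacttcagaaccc
AGGAAG on either strand was found in 4 of 8 promoters of these genes (2 of Egfl7, and those of Emcn and Tie1) and in 29.5% of 32851 promoters of the same length. The GATA letters AGATAA were in 0 of the 8 and in 9.99% of all promoters, and CACCC, the letters bound by KLF factors, in 5 of the 8 and 52.0%. In the windows shown, AGGAAG was present at 3 places for Egfl7, 1 for Tie1 and 0 for Kdr and Cldn5. The Egfl7 starts not shown had it at 1 and 0 places. Other sequences around a GGAA core were not counted. These are matches of letters, counted on both strands, and no binding was measured.

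Total estimated counts ran from 19650983 to 28860598 per library, and single genes of the group had between 54 (Kdr in WT-1) and 17049 (Pecam1 in KO-1) counts. Normalised counts below are counts divided by DESeq2 size factors. Whole-gene counts of Tgfbr1 (0.20 on the log2 scale, adjusted p-value 0.63 in DESeq2) and Tgfbr2 (-0.09, 0.838) pool all exons and all cell types of the wall and are no test of the deletion, so KO-1 and KO-2 stand for the libraries labelled KO. The tissue label was met by 9 smooth muscle genes, whose summed normalised counts ran from 948155 to 1116345 in WT and were 910857 in KO-1 and 1091133 in KO-2. The KO libraries stood apart from each other: mitochondrial transcripts took 11.7% of the counts in KO-2 and 2.62% to 4.44% elsewhere. Summed counts of adipocyte genes were highest in KO-2 and those of cardiac muscle genes in KO-1. Brown adipocyte genes were above WT in KO-1 too, at 4092 against 1217 to 1582.

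In the untreated aorta, levels per length differed widely between these genes. Pecam1 had 1548 ± 453.1 (SD, n = 4) normalised counts per kb of exon and lay above all other genes of the group in each library. Egfl7 (324.8 ± 57.6), Nos3 (309.7 ± 32.9), Cldn5 (282.2 ± 34.7), Tie1 (261.7 ± 37.2), Vwf (257.4 ± 69.6), Tek (251.4 ± 99.6) and Cdh5 (234.7 ± 74.2) followed with overlapping ranges (SD, n = 4), so their order is not settled. Emcn (43.4 ± 18.4) and Kdr (7.58 ± 1.4) were lowest, and the ranges of these 2 did not overlap with each other or with the rest. Flt1, the other main VEGF receptor of endothelium, had 66.6 normalised counts per kb in WT. In KO, Pecam1 was again highest with 2077 normalised counts per kb in KO-1 and 2255 in KO-2. The order of the others changed with the library: Vwf (717.5 per kb) was above Cdh5 (538.4) in KO-1 and below it in KO-2 (506.2 against 759.2). Likewise Kdr had 38.7 per kb against 57.5 of Emcn in KO-1, and 99.2 against 93.4 in KO-2. Lengths are unions of annotated exons, so a gene used mostly in a short isoform is understated.

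The question of the comparison was how transcripts of the lining cells stand shortly after TGF-β receptors are deleted in the neighbouring SMCs. In the libraries labelled KO, 4 of the 10 genes were higher by the DESeq2 adjusted p-value (Kdr, Cdh5, Vwf and Tie1) and 0 were lower, where 5.71% of 17070 genes tested were higher and 4.69% lower. With a fold change above 2 as well, 3 were called higher (Kdr, Cdh5 and Vwf), against a background of 3.54% of genes called higher, 2.1% called lower and 5.64% in either direction. Median log2 fold change was 0.67 for the 10 genes and 0.01 for all genes tested. Both KO libraries lay above all WT libraries in 7 of the 10 genes, as in 17.9% of genes tested, and below them in 1, Egfl7, as in 16.4%. All 10 genes passed the filter on low values and had an adjusted p-value.

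**Figure D1:**
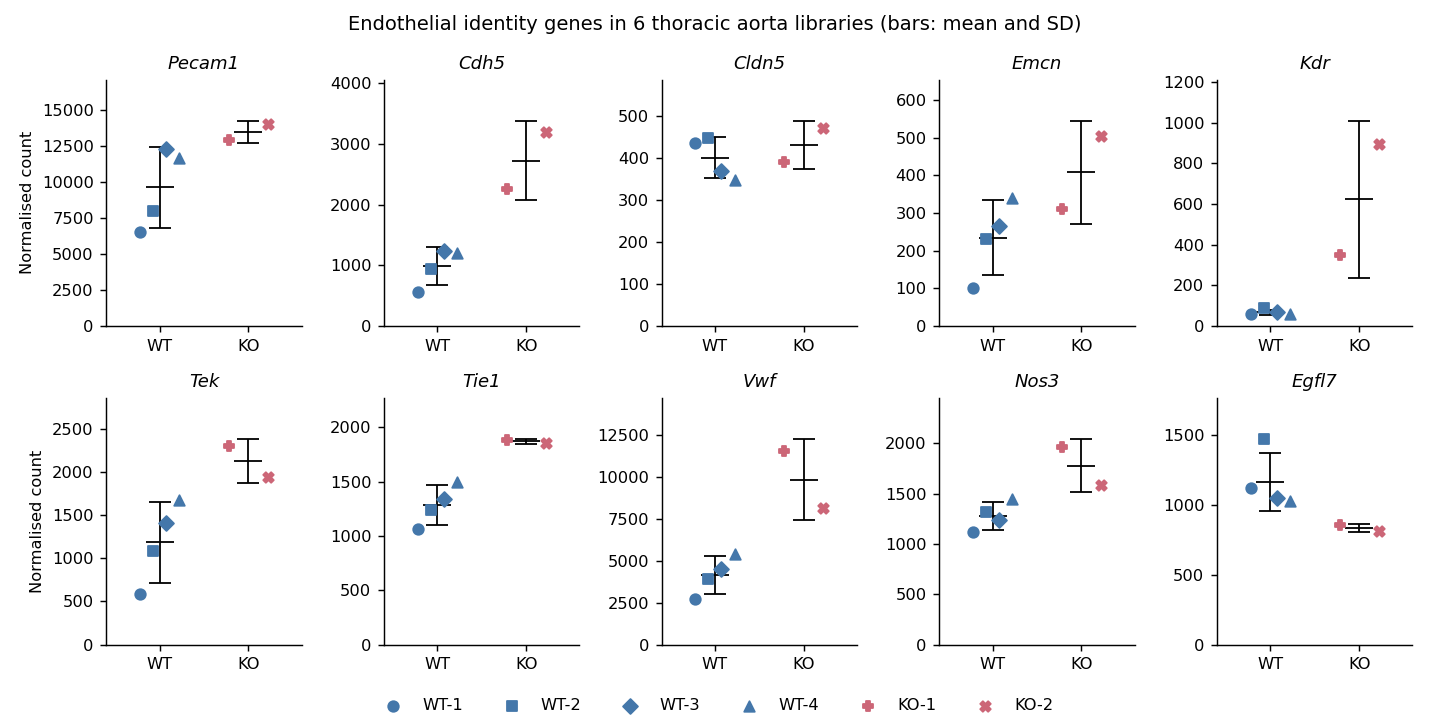
Normalised count (vertical axes, from 0) of each gene in the 4 WT and 2 KO libraries, 1 symbol per library, with the group mean and SD as bars. Both KO libraries lie above all WT libraries for 7 genes, below them for Egfl7, and within or across the WT range for Emcn and Cldn5.

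Among the receptors, Kdr changed most. Kdr (ENSMUSG00000062960.10, chromosome 5, 75932827 to 75978458, minus strand) encodes VEGF receptor 2, through which VEGF-A drives endothelial growth. It had normalised counts of 59.3, 86.2, 68.9 and 59.5 in WT-1 to WT-4, 349.8 in KO-1 and 896.1 in KO-2. Each KO library was more than 4 times the highest WT library (4.06 for the nearest pair), and KO-2 was 2.56 times KO-1. DESeq2 gave Kdr a log2 fold change of 3.18 ± 0.37 (standard error) and an adjusted p-value of 5.04e-15. Without KO-2 the log2 fold change of Kdr was 2.36, and without KO-1 it was 3.71. Both KO libraries held raised markers of other tissue, given below, so neither fit is free of them. Kdr was the only gene of the group that passed a DESeq2 test against a 2-fold change.

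Tie1 and Tek encode the receptors of the angiopoietin system, which keeps the endothelium quiescent and tight; Tek binds the angiopoietins and Tie1 modulates it. Tie1 (chromosome 4, 118471191 to 118490061) had 1063, 1243, 1341 and 1500 in WT-1 to WT-4, 1885 in KO-1 and 1857 in KO-2. The KO libraries were nearly equal and above every WT library. This is a log2 fold change of 0.54 ± 0.19 (standard error) with an adjusted p-value of 0.0471 in DESeq2. Tie1 lost the threshold in edgeR (adjusted p-value 0.0887) and without any one of WT-1, WT-2, WT-3, KO-1 or KO-2, where the DESeq2 adjusted p-value ran from 0.0722 to 0.151.

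Tek (chromosome 4, 94739289 to 94874976) had 582.2, 1079, 1404 and 1673 in WT, 2305 in KO-1 and 1945 in KO-2. WT-1 was the lowest and WT-4 the highest of the WT libraries, a 2.87-fold range. Although the groups did not overlap, the log2 fold change of 0.84 ± 0.33 (standard error) had an adjusted p-value of 0.080 in DESeq2. Without WT-4 the log2 fold change was 1.06 and the DESeq2 adjusted p-value 0.0285.

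Of the junction and surface proteins, Cdh5 moved most. Cdh5 (ENSMUSG00000031871.9, chromosome 8, 104101625 to 104144511, plus strand) encodes VE-cadherin, the adhesion molecule of endothelial adherens junctions. It had 561.3, 946.5, 1240 and 1198 in WT-1 to WT-4, 2263 in KO-1 and 3191 in KO-2. The lower KO library was 1.82 times the highest WT library. In DESeq2 this gave a log2 fold change of 1.47 ± 0.30 (standard error) and an adjusted p-value of 3.73e-05. It was 1.21 without KO-2 (DESeq2 adjusted p-value 0.0332) and 1.70 without KO-1.

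Pecam1, the gene of the homophilic adhesion molecule CD31, had 6523, 7999, 12325 and 11708 in WT, 12936 in KO-1 and 14043 in KO-2. Both KO libraries were above the WT range, but KO-1 was above WT-3 by 1.05-fold only. The difference for Pecam1, 0.48 ± 0.26 (standard error) on the log2 scale, did not pass in DESeq2 (adjusted p-value 0.245). Pecam1 is also expressed by platelets and some leukocytes.

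Emcn, which encodes the surface sialomucin endomucin, had 101.1, 230.8, 266.6 and 339.3 in WT, 311.1 in KO-1 and 505.2 in KO-2. The 3.36-fold range of WT, the widest of the group, took in KO-1. With a log2 fold change of 0.80 ± 0.40 (standard error), Emcn did not pass in DESeq2 either (adjusted p-value 0.216).

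Cldn5 encodes the main claudin of endothelial tight junctions. It had 435, 447.2, 369.5 and 346.7 in WT, 389.3 in KO-1 and 470.8 in KO-2, with KO-1 inside the WT range. Its log2 fold change was 0.10, with a 95% interval from -0.34 to 0.54 that leaves out a 2-fold change in either direction, and an adjusted p-value of 0.852 in DESeq2.

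The secreted products and the nitric oxide synthase gave a mixed picture. Vwf (ENSMUSG00000001930.17, chromosome 6, 125546774 to 125686679, plus strand) encodes von Willebrand factor, which endothelium stores and releases to tether platelets. It had 2722, 3919, 4512 and 5386 in WT-1 to WT-4, 11527 in KO-1 and 8131 in KO-2. The lower KO library was 1.51 times the highest WT library, and here KO-1 was the higher of the pair. Vwf had a log2 fold change of 1.25 ± 0.26 (standard error) and an adjusted p-value of 8.39e-05 in DESeq2. Without KO-1 it was 0.98, under the 2-fold threshold, with a DESeq2 adjusted p-value of 0.0252.

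Nos3, the gene of endothelial nitric oxide synthase, had 1121, 1316, 1237 and 1445 in WT, 1964 in KO-1 and 1591 in KO-2. The groups did not overlap, with 1.10-fold between the nearest libraries. Nos3 missed the threshold in DESeq2 at a log2 fold change of 0.47 ± 0.19 (standard error, adjusted p-value 0.0905), and it depended on the KO library: without KO-2 it was 0.63 with a DESeq2 adjusted p-value of 0.0415, and without KO-1 it was 0.32 with 0.351. Its exons share 294 bases with Atg9b on the opposite strand, which had at most 33.2 normalised counts in a library.

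Egfl7, which encodes a secreted matrix protein of endothelial cells and hosts the miR-126 locus, was the only gene with a negative log2 fold change. It had 1117, 1466, 1046 and 1023 in WT, 854.4 in KO-1 and 810 in KO-2. Both KO libraries were below every WT library. On the log2 scale the difference was -0.48 (95% interval -0.89 to -0.07), and the adjusted p-value in DESeq2 was 0.131. Agpat2, on the opposite strand with 64 shared exon bases, had 3834 normalised counts in KO-2 and 429.1 to 766 in the other libraries. The row of Mir126a held about 1 count per library and gives no measure of the miRNA.

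**Figure D2:**
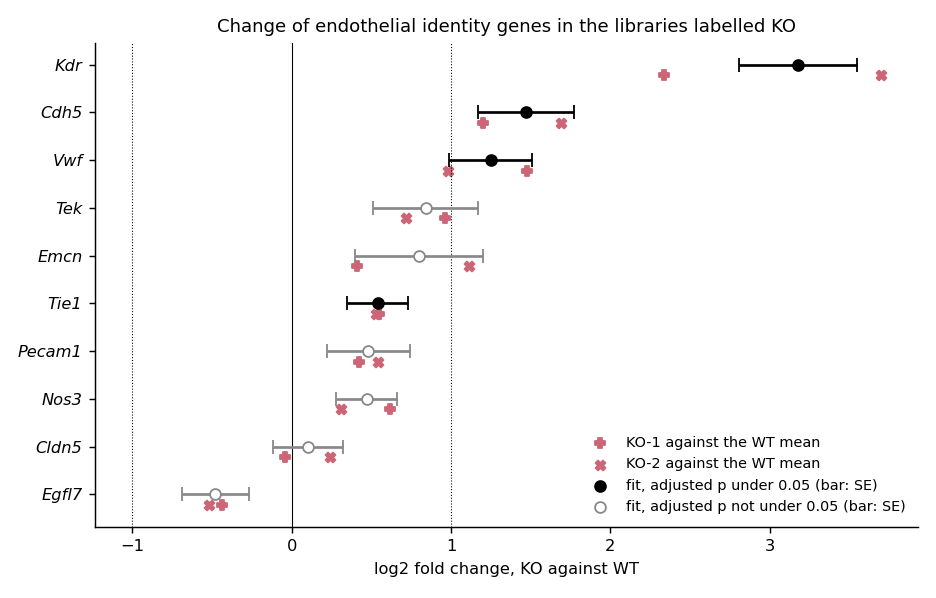
Log2 fold change of KO against WT (horizontal axis) with its standard error from the fit of all 6 libraries, filled where the adjusted p-value was under 0.05, and below it each KO library against the WT mean. Kdr, Cdh5, Vwf and Tie1 are filled, Kdr lies farthest at 3.18, and Egfl7 is on the negative side at -0.48.

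Next, each gene was set against the mean log2 level of all 10 in the same library, a measure that does not depend on how libraries are scaled. The differences of the 10 genes from this mean add up to 0, so the large change of Kdr lowers the values of the others. On this log2 scale the WT libraries had Kdr at -3.75 ± 0.33 (SD, n = 4) and the KO libraries at -1.60 ± 0.83 (SD, n = 2), a difference of 2.15. The mean was therefore also taken over the 9 genes other than Kdr, a choice made after seeing the data. With both references the KO libraries were above all WT libraries for Kdr and Cdh5 and below them for Egfl7. The difference for Cdh5 was 0.63 with all 10 genes and 0.87 with the 9, and that for Egfl7 was -1.35 and -1.11. For other genes the reference decided whether the groups overlapped. Pecam1 (-0.35), Tie1 (-0.33) and Cldn5 (-0.78) lay below WT against the mean of 10, but overlapped against the mean of 9 (-0.11, -0.09 and -0.54), where Vwf (0.63) lay above WT. Tek, Emcn and Nos3 overlapped with both. The exact permutation test of 4 against 2 libraries, made two-sided by doubling the smaller tail, cannot go below 0.133, so no difference in make-up could pass 0.05.

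**Figure D3:**
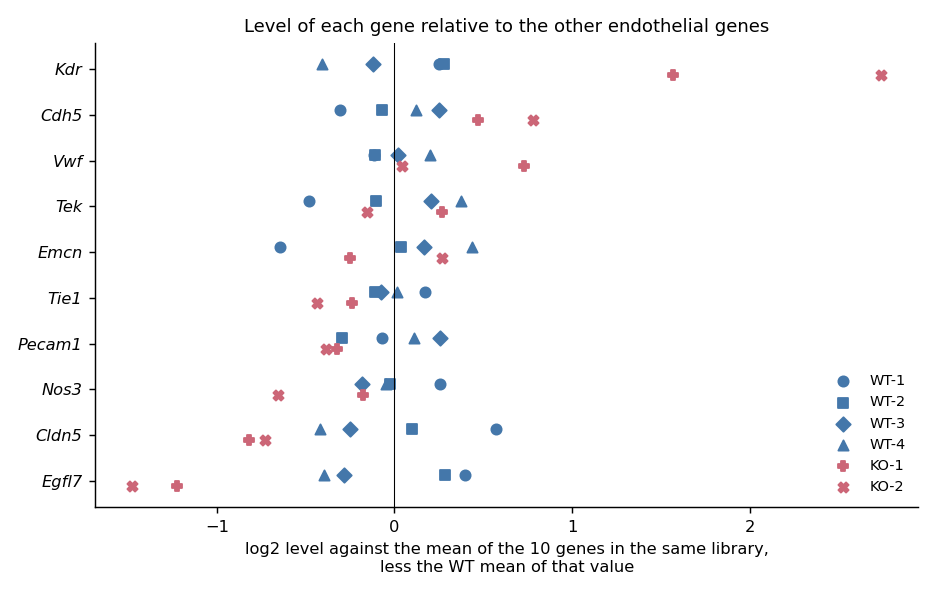
Log2 level of each gene against the mean of the 10 genes in the same library, less the WT mean of that value (horizontal axis), for the 4 WT and 2 KO libraries. Kdr and Cdh5 lie to the right of WT in both KO libraries and Egfl7 to the left, while the places of Pecam1, Tie1 and Cldn5 to the left of WT depend on having Kdr in the mean.

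WT libraries differed among themselves in a shared way. WT-1 had the lowest level of 8 of the 10 genes, and its mean log2 level over the group was 0.44 below the WT mean, against 0.07, 0.14 and 0.22 above it in WT-2, WT-3 and WT-4. KO-1 and KO-2 were 0.79 and 0.97 above the WT mean, and the medians over the 10 genes, in which Kdr weighs less, were 0.59 and 0.71. Within WT, Pearson's r of log2 levels ran from -0.90 to 1.0 over all 45 pairs of genes. It was 0.63 to 1.0 between pairs of Pecam1, Cdh5, Tek, Tie1, Vwf, Nos3 and Emcn, 7 genes grouped after their values were seen, and -0.09 to 0.23 between Kdr and these 7. Cldn5 was higher in WT-1 and WT-2 than in WT-3 and WT-4, and Egfl7 was highest in WT-2. These correlations are descriptions over 4 libraries that share scaling and tissue composition.

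The genes whose pattern over the 6 libraries was most like the group mean, among 11103 protein-coding genes, were Rfx7, Ifih1, Twf1, Eps8, Ntn4, Gng2, Maob and Npc1, with Pearson's r from 0.99 to 0.993. Each was lowest in WT-1 and higher in both KO libraries than in any WT library. Of the group itself, Cdh5 (r = 0.99) and Tie1 (0.98) followed the mean most closely, Cldn5 (0.11) hardly, and Egfl7 (-0.73) ran against it. Each of these genes is part of that mean, which raises its r, so the values do not compare with those of genes outside the group.

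Ligands and partners of these receptors were examined in a list of 14 VEGF and angiopoietin pathway genes, of which 7 were higher and 1 lower by the DESeq2 adjusted p-value (median log2 fold change 0.67). Beside this list and those below, 5.71% of all genes tested were higher and 4.69% lower. Angpt1, the ligand that activates Tek, had 37.7 to 73.1 in WT, 256.5 in KO-1 and 146.3 in KO-2. It rose by 1.97 on the log2 scale (adjusted p-value 6.04e-05 in DESeq2). Svep1, a matrix protein that binds Tie1, rose by 1.41 (adjusted p-value 4.22e-05) and Vegfd by 0.98 (adjusted p-value 1.02e-07). Flt4, VEGF receptor 3 and chiefly a lymphatic gene in adults, had 47.2 to 143.8 in WT, 248.1 in KO-1 and 491.7 in KO-2, and it rose by 2.03 on the log2 scale (adjusted p-value 7.17e-05). Angpt4, Nrp2 and Vegfa also passed. Pgf, placental growth factor, fell by 1.17 on the log2 scale (DESeq2 adjusted p-value 0.00532). For Flt1 the log2 difference was 0.15 with an adjusted p-value of 0.767 in DESeq2, and whether it differs from that of Kdr was not tested. Without KO-2 the higher genes left were Angpt1, Angpt4, Svep1 and Vegfd, and Pgf was still lower. The lists also changed without KO-1, which is not given for them here or below. Angpt4 had 204.7 to 309.8 in WT, 777.8 in KO-1 and 436.4 in KO-2. Either fit leaves a single KO library.

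Other endothelial genes rose in part. Of 16 surface and signalling genes, 5 were higher and 0 lower (median log2 fold change 0.35), namely S1pr1, Sox18, Aplnr, Cd93 and Mmrn2. S1pr1, the sphingosine-1-phosphate receptor, had 372.4 to 650.5 in WT, 1511 in KO-1 and 1604 in KO-2, and it rose by 1.64 on the log2 scale (adjusted p-value 1.52e-09 in DESeq2). Esam (-0.08, DESeq2 adjusted p-value 0.857) and Eng (0.05, 0.90) did not pass. S1pr1 was the one higher gene left without KO-2, where Arhgef15 was lower. Of 14 transcription factors, 2 were higher, Sox18 by 0.98 and Fli1 by 0.88 on the log2 scale (adjusted p-values 0.00135 and 0.0163 in DESeq2). For Erg the log2 difference was -0.57 with an adjusted p-value of 0.0719 in DESeq2. Without WT-1, Sox17 was past the threshold and lower, and Fli1 did not pass. Without KO-2, Erg was past the threshold and lower, and neither Sox18 nor Fli1 passed. Activation genes gave 2 higher of 8 (Icam1 and Thbd), and partners of nitric oxide synthase 2 higher of 10 (Cavin2 and Ddah1). Without KO-2, Icam1, Cavin2 and Ddah1 did not pass, while Thbd and Hsp90aa1 were higher and Cavin1 was lower. Thbd had 2497 to 3132 in WT, 5298 in KO-1 and 3404 in KO-2. The transcription factor Klf2 and the synthase partner Ddah2 were below all WT libraries in KO-2 alone.

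Lists for the kinds of vessel then differed in their counts, beside 5.71% higher and 4.69% lower among all genes tested. Of 12 arterial genes 0 were higher and 1 was lower, Mgp, which encodes matrix Gla protein is abundant in SMCs too and fell by 1.78 on the log2 scale (adjusted p-value 1.14e-28 in DESeq2). Among the other 11, Sema3g had the highest log2 difference (1.12, adjusted p-value 0.0537 in DESeq2), followed by Gja5 (0.60) and Efnb2 (0.38), and Sox17 the lowest (-0.71), while Gja4 (0.20), Bmx (-0.10), Dll4 (0.02) and Hey1 (0.19) lay closer to 0. Both KO libraries were above all WT libraries in 5 of the 12 and below them in 1, beside 17.9% and 16.4% of genes tested. The list median was 0.00. Sema3g was past the threshold with total counts as the scaling and without WT-4. Without WT-1, Sox17 was past the threshold and lower, beside Mgp. In WT-1, WT-2, KO-1 and KO-2 alone, Sema3g passed with and without a replicate block, and Gja5 passed without the block. Of 12 capillary genes 6 were higher and 1 was lower. Aqp1, the lower gene and the most abundant of the 12, fell by 0.56 on the log2 scale (adjusted p-value 0.00694 in DESeq2). The list median log2 fold change was 2.36 over all 12 with no filter on low values. It was 1.85 over the 10 genes that averaged 10 or more normalised counts within WT. Gpihbp1, which holds lipoprotein lipase on capillaries, had 5.22 to 16.2 in WT, 22.8 in KO-1 and 162.2 in KO-2. Cd36 and Plvap were higher as well, and Fabp4 and Cd36 are also adipocyte genes. Without KO-2, only Cd36 and Plvap remained among the higher genes of this list. Lymphatic genes were higher in 5 of 8 (Prox1, Lyve1, Mmrn1, Flt4 and Ccl21a) and lower in 1 (Pdpn). Prox1, which specifies lymphatic endothelium and is expressed in heart muscle too, had 6.29 to 7.99 in WT, 124.4 in KO-1 and 55.3 in KO-2. Prox1 and Lyve1 were the higher genes without KO-2. Lyve1 had 689.7 to 865.6 in WT, 1471 in KO-1 and 1873 in KO-2, far above the level of Prox1. Macrophage genes were higher too, as given below, and which cells of the wall held Lyve1 was not tested. Venous genes gave 2 of 6 (Aplnr and Nrp2), and 0 of 6 without KO-2. Several genes stand in more than 1 list, among them Aplnr, Flt4, Nrp2, Flt1 and Sox18, and differences between lists were not tested.

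**Figure D4:**
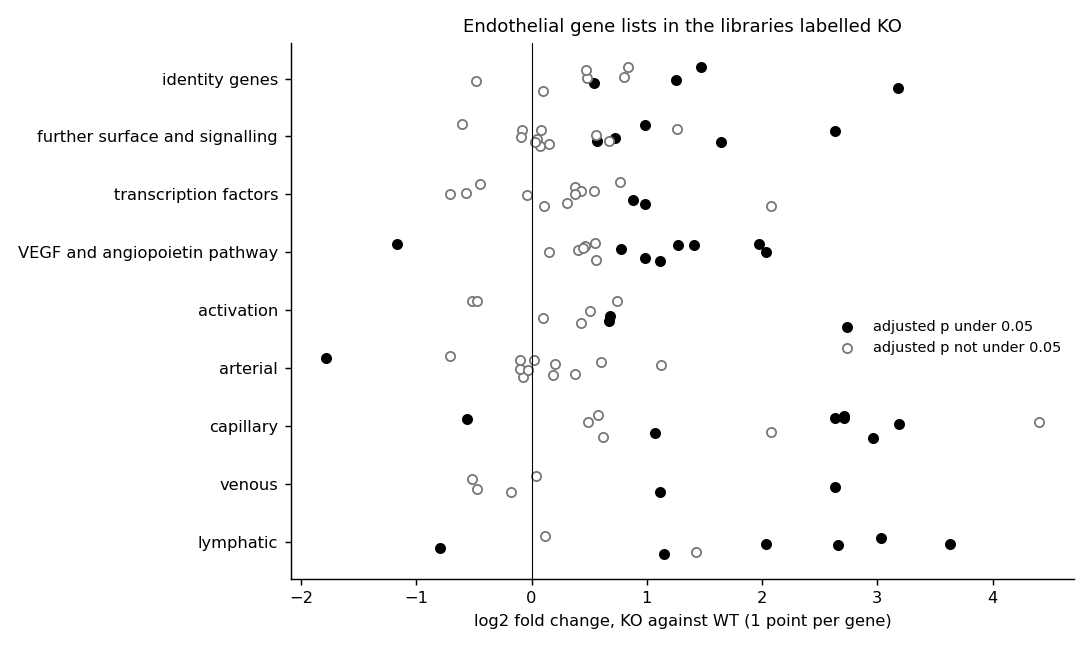
Log2 fold change of KO against WT (horizontal axis), 1 point per gene, for the 10 identity genes and 8 other endothelial lists, filled where the adjusted p-value was under 0.05. Arterial genes lie between Mgp at -1.78 and Sema3g at 1.12, and filled points above 2 are found in the identity, further surface, pathway, capillary, venous and lymphatic lists.

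Markers of other tissue moved with the group. Summed normalised counts of 7 brown adipocyte genes were 1217 to 1582 in WT, 4092 in KO-1 and 14208 in KO-2, and those of 8 white adipocyte genes 4138 to 5996, 6340 and 26763. For 8 cardiac muscle genes the sums were 3095 to 4441 in WT, 29061 in KO-1 and 4185 in KO-2. Red blood cell genes (5) had 859 to 5990 in WT, 11076 in KO-1 and 61684 in KO-2, and mesothelial genes (8) 698 to 909, 1515 and 3011. Platelet genes (7), relevant because platelets contain Vwf and Pecam1, had 381 to 542 in WT, 806 in KO-1 and 987 in KO-2. Of these 7, 3 were higher (Ppbp by 3.80 on the log2 scale, Gp6 and Pf4), while Itga2b did not pass. Pf4 held the largest part of the sum, with 256.6 to 349.3 in WT, 495.5 in KO-1 and 465.9 in KO-2. Gp1bb had a negative log2 difference (-0.35, adjusted p-value 0.724 in DESeq2). Gp6 was at 0 in all WT libraries. Pericyte genes gave 1 higher and 2 lower of 8, fibroblast genes 2 higher of 8, macrophage genes 7 higher of 8, lymphocyte genes 0 of 7 and smooth muscle genes 0 of 9. Heart, fat and blood carry endothelium or endothelial transcripts of their own. The part of these tissues in the higher levels of Kdr, Cdh5 and Vwf was not tested. Like the levels of these 3 genes, some summed counts were above all WT libraries in both KO libraries. They were those of the brown and white adipocyte, red blood cell, mesothelial, platelet, macrophage, lymphocyte and fibroblast lists. The cardiac sum was above WT in KO-1 alone. In WT most of that sum was Ryr2, which had 2291 to 2667 there and 1368 in KO-2. Actc1, Tnni3 and Tnnt2 were above all WT libraries in both KO libraries, Tnnt2 with 376.3 to 848.8 in WT and 1975 in KO-2. Myl4, like Ryr2, was below all WT libraries in KO-2.

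**Figure D5:**
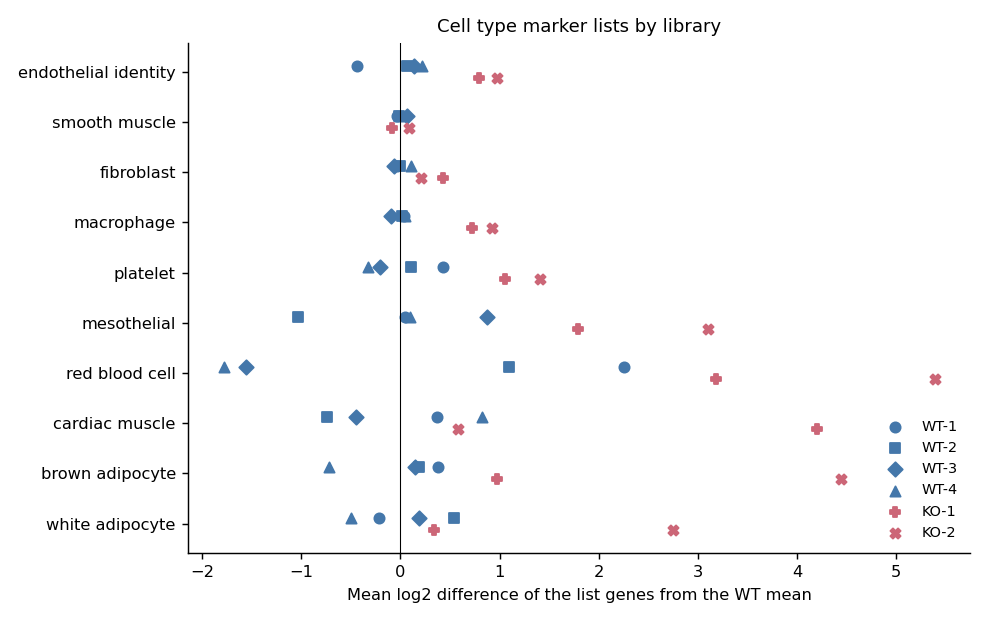
Mean log2 difference from the WT mean (horizontal axis) of each marker list in the 4 WT and 2 KO libraries. The endothelial identity genes are at 0.79 and 0.97 in KO-1 and KO-2 (medians 0.59 and 0.71), while cardiac muscle genes stand out in KO-1 and adipocyte genes in KO-2.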

How the data were processed

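RNA of whole thoracic aorta from 4 WT and 2 KO mice was sequenced. The authors trimmed reads with Trim Galore, mapped them to GRCm38 with HISAT2 and quantified genes with StringTie on GENCODE M15 models. Estimated counts, as whole numbers that the authors did not scale for depth, were deposited for each gene, and use of strand is not stated. Columns carry codes, which were matched to libraries by code and number (0-1 to 0-4 as WT, R1-0-1 and R1-0-2 as KO), an inference.

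Total counts were 19650983 to 28860598 per library. Positions and exon lengths came from GENCODE M21. DESeq2 1.42.0 (R 4.3.3) was fitted to all 6 libraries with group as the only term, and p-values were adjusted over all genes. Genes under an adjusted p-value of 0.05 with a fold change above 2 were called. Log2 levels of libraries used a pseudocount of 0.5, and list medians left out genes averaging under 10 normalised counts, except where stated. The fits were tested on simulated data. Alternatives were edgeR 4.0.16, other scalings and filters, a replicate block and leaving out each library.

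All 10 genes were named. From each other list the rule named up to 4 genes past the test, by smallest adjusted p-value. Further names, among them all genes that did not pass or passed only in an alternative, were chosen after their values were seen. Likeness was Pearson's r with the centred mean profile, over genes averaging 100 normalised counts or more. Members and lists were chosen with earlier results of these data known. DESeq2 p-values set each difference against the spread between these libraries, which the fit estimates in part from other genes.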

Additional observations from a re-analysis of the deposited data

How the results depend on the processing

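Kdr was past the adjusted p-value in all 15 alternative fits, with log2 fold changes from 2.36 to 3.71, and Cdh5 (1.21 to 1.88) and Vwf (0.98 to 1.57) in 14, the exception being the DESeq2 test against a 2-fold change. That test called 114 genes, 1 of them among the 10 (Kdr), which was also the 1 past its adjusted p-value. Tie1 was past the threshold in 6 alternatives (adjusted p-values from 0.0124 to 1), Tek in 3, Pecam1 in 2, Nos3 and Emcn in 1 each, and Egfl7 and Cldn5 in 0. edgeR with a low count filter called 633 genes and the same 3 of the 10. Leaving out 1 library at a time gave 636 to 1284 genes called, 3 to 5 of the 10 past the adjusted p-value and 2 to 4 called, with a median log2 fold change of the 10 from 0.50 to 0.83. Cldn5 ranged from -0.03 to 0.24 when 1 library was left out and changed sign without KO-2 (-0.03), with the replicate block (-0.05) and in the same 4 libraries without it (-0.04, a fit added after seeing the data). The groups share the replicate numbers 1 and 2. Deviations of equal numbers correlated at -0.0867 and 0.014 over 15511 genes, so the numbers were not taken to pair the mice. With the replicate block on these 4 libraries 624 genes and 5 of the 10 were called, with a median log2 fold change of 1.13, and the same 4 libraries without the block gave 933 genes, 4 of the 10 and a median of 1.09. A group of 2 limits all of these comparisons, and the standard errors of Kdr (0.37) and Emcn (0.40) were the largest of the 10.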
